A study of Caenorhabditis elegans with 33 samples.

Results

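The glutathione S-transferase (GST) genes of *C. elegans* were described in whole L3 hermaphrodite larvae of 7 strains. Members were all genes of the deposited expression table whose WBcel235 symbol is *gst-*, *gsto-* or *gstk-* followed by a number, which gave 49 of 21975 genes. The rule read symbols alone and no expression value, although the family was picked for description with earlier results of these data known.

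GSTs join the thiol of glutathione to electrophilic compounds, or use glutathione to reduce peroxides, so that reactive or foreign molecules can be exported and broken down. In worms most *gst* genes belong to a nematode expansion related to the sigma class, and smaller groups belong to the pi, omega, zeta and kappa classes. Several respond to the oxidative stress factor SKN-1, and *gst-4* is the usual reporter of that response.

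The study asked how the X chromosomes stay repressed in hermaphrodites after dosage compensation is established. Poly(A) RNA was sequenced from 33 libraries, with 3 replicates in each of 11 conditions, after L1 larvae had grown for 24 h at 20 °C. The untreated strains were WT, *cec-4*, *dpy-21*, *dpy-21; cec-4*, *dpy-27::AID*, *TIR-1; dpy-27::AID* and *TIR-1; dpy-27::AID; cec-4*, and *cec-4* and the last 3 were also grown on 4 mM auxin. The *cec-4* allele was ok3124 (CEC-4 is a chromodomain protein that anchors heterochromatin at the nuclear envelope), and the *dpy-21* allele was e428 (DPY-21 is a histone H4K20 demethylase). In *dpy-27::AID* (xoe41) the condensin subunit DPY-27 carries a degron, which only the plant F-box protein TIR1 recognises on auxin. TIR1 came from the ieSi57 transgene under the *eft-3* promoter, which is active throughout the soma, so DPY-27 is degraded in the strains with *TIR-1* on auxin (protein was not measured in these files). Before auxin, the paper reports somewhat lower DPY-27 staining than in WT in the intestinal nuclei of these strains. It also reports a small X derepression in them, possibly from leaky TIR1. Their untreated libraries may therefore be partly depleted of DPY-27. No source used here states that the replicates were separate cultures, so p-values measure the spread between these libraries, which may be technical. RNA came from whole larvae, and fewer cells of a type and less RNA per cell cannot be told apart.

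Values were FPKM (fragments per kilobase of transcript, scaled by the authors). From the lowest values above 0, 1 fragment on a transcript of 1 kb was worth an estimated 0.0457 to 0.120 FPKM, and 188 of 5592 genes with a median of at least 20 FPKM were listed at 0 in at least 1 library. A gene listed at 0 was therefore not taken as silent. WT replicates 1 and 2 stood apart, with FPKM totals of 1.67 and 1.32 times the median of the 31 others. Of 15 libraries labelled *cec-4*, alone or with other alleles, 11 listed *cec-4* mRNA at 0 and 4 held up to 8.99 FPKM, while the 18 other libraries ranged from 0 to 19.6 FPKM with 2 at 0. The part of *cec-4* removed by the allele was not compared with these reads, so the level does not settle the labels, and results for those strains are given for the libraries as labelled. The *dpy-21* and *dpy-27* alleles need not change their mRNA and were not checked by it. Summed over 6 vitellogenin genes, adult yolk mRNA was at most 5.65 FPKM in any library, and summed over 7 intestinal genes (*elt-2*, *ges-1* and others) the level was 4106 to 10596 FPKM, although the intestinal gene *ifb-2* was listed at 0 in 31 libraries. The intestinal sum mostly reads *asp-1* (mean 4270 FPKM) and *act-5* (mean 1691 FPKM), while *elt-2* averaged 32.3 FPKM and *ges-1* 48.4 FPKM.

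GST mRNA was dominated by a few genes. The 10 highest genes held 72.9% of the mean summed GST level, and their mean FPKM ran from 265.5 for X-linked *gst-36* through 248 for *gst-27*, 209 for *gst-26* and 206 for *gst-1* to 127 for *gst-6*. *gst-7* (191 FPKM), *gsto-1* (181 FPKM), *gst-10* (171 FPKM), *gst-5* (144 FPKM) and *gst-13* (138 FPKM) lay between them. Libraries of neighbouring genes in that order overlapped, as *gst-36* ranged from 147 to 379 FPKM and *gst-27* from 133 to 433 FPKM. A further 18 genes had a mean of 10 to 100 FPKM and 15 a mean of 1 to 10 FPKM. The 6 genes under 1 FPKM (*gst-44*, *gst-34*, *gst-30*, *gst-32*, *gst-2* and *gst-25*) were not tested, and *gst-25* was listed at 0 in 21 libraries. In all, 17 members were listed at 0 in at least 1 library, and 11 of those were among the 43 members tested.

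**Figure D1:**
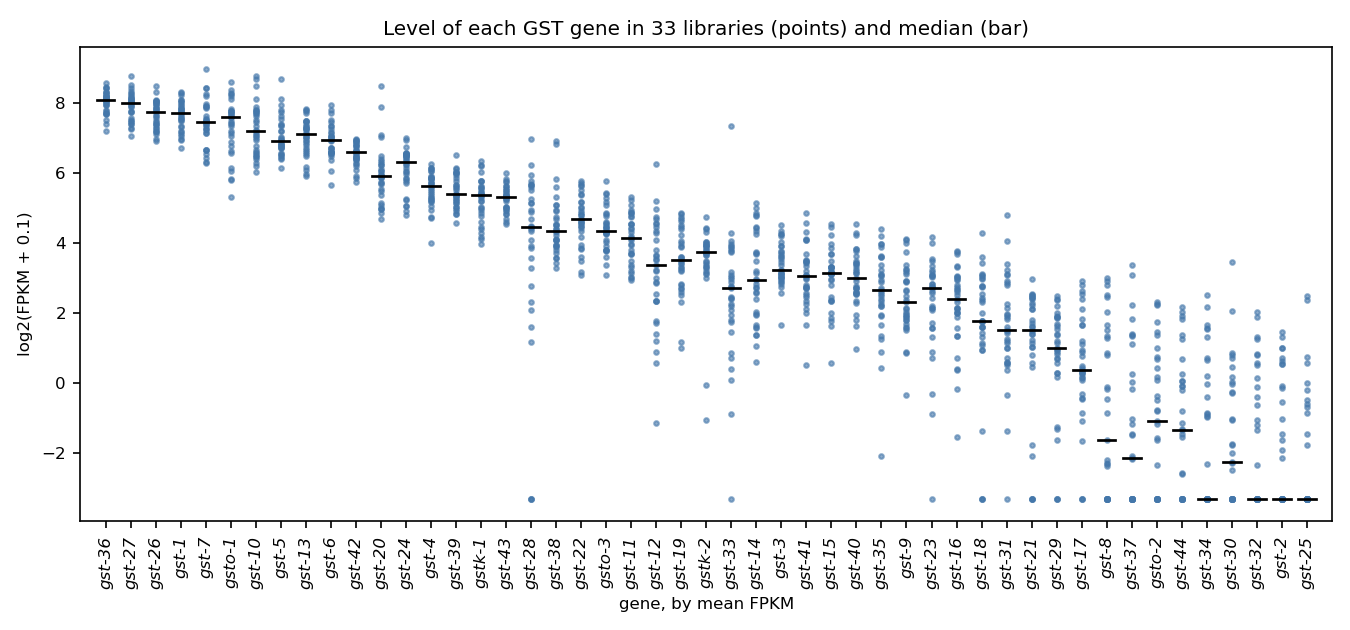
Level of the 49 GST genes in all 33 libraries on the log2(FPKM + 0.1) scale, ordered by mean FPKM. Each point is a library and each bar the median. The highest genes stay above the floor in all libraries, although *gsto-1* ranges from 39.3 to 386 FPKM. By contrast *gst-8*, *gst-37* and all genes to their right have many libraries at the floor, which stands for a listed value of 0.

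The smallest spread between replicates belonged to the zeta class gene *gst-42*, related to the maleylacetoacetate isomerase of tyrosine breakdown, and the pi class gene *gst-1*. Their SD of log2 values within conditions was 0.25 for *gst-42* and 0.26 for *gst-1*. Across the 43 tested members the median SD was 0.74, above the 0.60 of all 13309 tested genes. The share of log2 variance that lay between conditions was 41.5% (median of members) and 39.7% (median of all tested genes). It was largest of the 43 members for *gst-21* (72.5%), *gst-10* (72.4%), *gst-1* (71.3%) and *gst-11* (71.0%), and *gst-21* was listed at 0 in 4 libraries. With 3 libraries in each of 11 conditions, part of such a share arises without any difference between conditions. That part was not subtracted, so the shares only rank the genes.

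Chromosome II held 26 of the 49 members, and 26 members stood in 4 clusters (neighbours within 60 kb). On WBcel235, 9 genes from *gst-20* to *gst-18* filled chromosome II from 13608154 to 13630887, and 9 from *gst-26* to *gst-35* filled 15163817 to 15185389. The third cluster, at 4879891 to 4935054 of the same chromosome, held *gst-6*, *gst-7*, *gst-8*, *gst-9* and *gst-30*. The fourth placed *gst-3*, *gst-2* and *gst-4* on chromosome IV from 10139380 to 10143099. Genes within a cluster differed widely in level, from 0.681 FPKM for *gst-32* to 248 FPKM for *gst-27* in one of them. Only 3 members were X-linked, namely *gst-11* (3632367 to 3633754), *gst-36* (9861646 to 9862960) and *gst-42* (11726264 to 11727936), all on the minus strand. The spans of 14 members overlap another annotated gene, among them *gst-36* with *scav-5*, *gsto-1* with *kle-2*, *gst-5* with *nos-1* and *gst-4* with *dhs-12*, the last on the same strand. How reads were shared between overlapping genes or near-identical copies is not stated, and values of *gst-17* and *gst-18*, which overlap each other, are uncertain for that reason.

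Over the 33 libraries, members of a cluster did not as a rule vary together. The median Pearson r of log2 values was 0.11 over the 64 pairs within a cluster and 0.079 over all 903 pairs of tested members, which share libraries and depth. The most alike were *gst-10* and *gst-13* (r = 0.87), which lie on different chromosomes, the neighbours *gst-26* and *gst-27* (0.85), *gst-20* and *gst-38* (0.77), and *gst-5* and *gst-7* (0.74). After condition means were removed these r values were 0.77, 0.88, 0.69 and 0.84, so the pairs also moved together among replicates.

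The summed level of the 49 genes lay between 1922 and 4491 FPKM per library, or 0.129% to 0.234% of all FPKM. In *TIR-1; dpy-27::AID* it was 3334, 3271 and 2582 FPKM without auxin and 1922, 2252 and 2056 FPKM on auxin. It was 2654, 2794 and 3001 FPKM without auxin and 2409, 2237 and 2207 FPKM on auxin in *TIR-1; dpy-27::AID; cec-4*. In both strains with *TIR-1* every auxin library lay below every untreated one. In *dpy-27::AID* the sums overlapped, at 2106, 2262 and 2924 FPKM without auxin and 2421, 2235 and 2609 FPKM on auxin. In *cec-4* they also overlapped, at 2268, 2323 and 2957 FPKM without auxin and 2405, 2432 and 2371 FPKM on auxin. WT had the highest sums, 4491 and 3880 FPKM, in the pair of libraries with the high totals and 2533 FPKM in replicate 3. As a percentage of all FPKM, these WT libraries were alike (0.176, 0.192 and 0.176%).

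**Figure D2:**
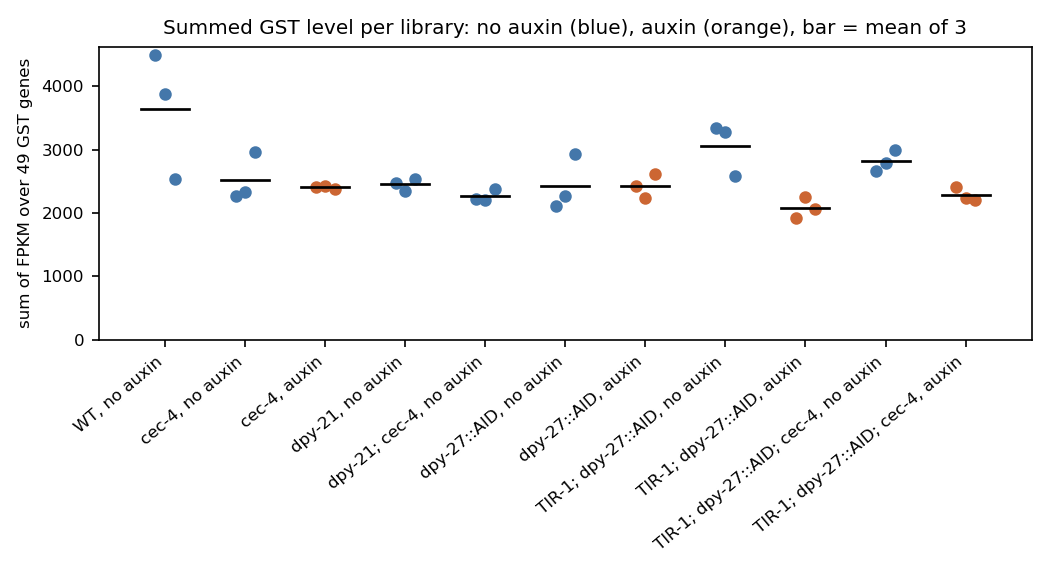
Sum of FPKM over the 49 GST genes in each library (points) and mean of 3 libraries (bars), with conditions on auxin in orange. Auxin libraries of *TIR-1; dpy-27::AID* (1922 to 2252 FPKM) and of *TIR-1; dpy-27::AID; cec-4* (2207 to 2409 FPKM) lie below their untreated counterparts, and WT replicates 1 and 2 lie above all other libraries.

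In the strains without *TIR-1*, no GST gene passed the test on auxin. This comparison asks what auxin itself does. In *cec-4*, 0 of 43 members passed an adjusted p of 0.05 in limma (1 at an unadjusted p under 0.05), beside 0.00751% of all tested genes. The median log2 fold change of members was 0.021 (all genes, 0.029). In *dpy-27::AID*, 0 members passed (1 at an unadjusted p under 0.05), beside 0% of all genes, and the median was 0.12 (all genes, 0.018). The SKN-1 reporter gene *gst-4* was 41.0, 49.2 and 35.8 FPKM without auxin and 70.6, 60.4 and 75.7 FPKM on auxin in *dpy-27::AID*. The libraries did not overlap, but the log2 fold change of 0.72 ± 0.30 (SE) did not pass (adjusted p = 0.942). As no share of all genes without overlap is given for this comparison, the absence of overlap is a description only. In *cec-4* the *gst-4* values were 39.5, 66.2 and 55.4 FPKM without and 56.9, 42.9 and 59.2 FPKM with auxin.

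In *TIR-1; dpy-27::AID*, where auxin depletes DPY-27, *gst-7* fell and most other members lay below their untreated level. *gst-7* was 503, 241 and 177 FPKM without auxin and 92.3, 77.9 and 79.1 FPKM on auxin. All auxin libraries were lower than any untreated one, and the log2 fold change was -1.74 ± 0.38 (SE, adjusted p = 0.0387). It was the only member called, 1 of 43, where 0.413% of all 13309 genes were called. Below 0 were 34 of 43 members, against 52.6% of all tested genes, with a median log2 fold change of -0.61 against -0.038. This median was -0.29 without untreated replicate 1, -0.40 without auxin replicate 1 and between -0.81 and -0.59 without each of the other 4 libraries, with 31 to 35 members below 0 in all 6 cases. Libraries did not overlap, with auxin lower, for 11 members, against 9.12% of all genes, and with auxin higher for 1 (*gst-18*), against 9.07%. Set against *dpy-27::AID* on auxin instead, the auxin libraries had 24 of 43 members below 0 and a median of -0.20 (all genes, -0.014). The untreated libraries had the highest mean GST share of all FPKM of the 11 conditions, 0.205%, against 0.163% in untreated *dpy-27::AID*. Their 503 FPKM was the highest *gst-7* value of all 33 libraries.

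Next to *gst-7* came several abundant genes that did not pass. *gst-13* was 178, 209 and 91.9 FPKM without auxin and 59.9, 71.5 and 67.2 FPKM on auxin, with a log2 fold change of -1.19 ± 0.28 (SE, adjusted p = 0.0554). *gst-10*, whose product conjugates the lipid peroxidation product 4-hydroxynonenal, was 205, 222 and 109 FPKM without auxin and 86.7, 72.7 and 64.3 FPKM on auxin (log2 fold change -1.2 ± 0.35, adjusted p = 0.126). *gst-20* was 135, 130 and 66.7 FPKM without auxin and 31.8, 31.1 and 28.7 FPKM on auxin (log2 fold change -1.79 ± 0.52, adjusted p = 0.124). For each of these 3 genes every auxin library was below every untreated one, while untreated replicate 3 was the lowest of its group. By contrast *gst-36*, *gst-27* and *gst-26* had log2 fold changes of -0.079, 0.047 and 0.10, with 95% intervals that all lay between -0.63 and 0.69, and *gst-4* had -0.030 (interval -0.65 to 0.59).

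The *gst-7* call did not survive the loss of any of 5 of the 6 libraries compared (highest adjusted p 0.135, when untreated replicate 2 was left out), although the log2 fold change kept its sign, from -2.07 to -1.32. The summed level of 6 molt cycle genes (4 tested) differed too. It was 317, 88.8 and 149 FPKM without auxin and 628, 318 and 324 FPKM on auxin, *noah-1* was called higher, and *mlt-11* was listed at 0 in all 33 libraries. Intestinal genes summed to 6023 to 10596 FPKM without and 5302 to 6734 FPKM with auxin, with 0 of 6 tested genes called. Hypodermal genes (5) summed to 213 to 1170 FPKM without and 699 to 1458 FPKM with auxin, and none was called. That sum mostly reads *rol-6* (mean 653 FPKM) and *dpy-7* (mean 306 FPKM), while *elt-3* was listed at 0 in 27 libraries. The part of molt timing or tissue in the GST values was not tested.

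**Figure D3:**
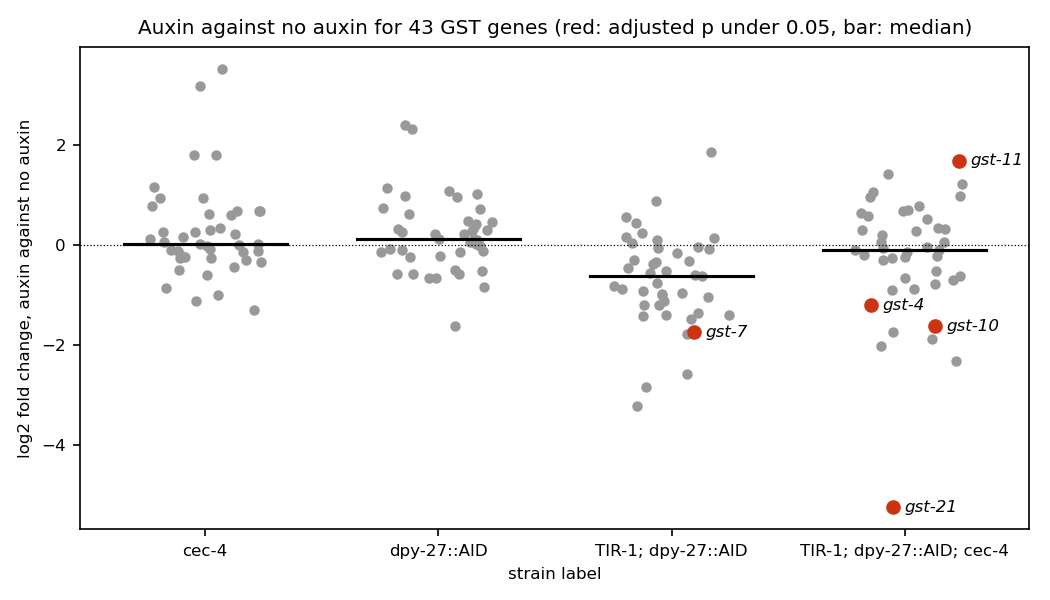
Log2 fold change on auxin of the 43 tested GST genes in 4 strains. Grey points did not pass an adjusted p of 0.05, red points did and are named, and bars are medians, which were 0.021, 0.12, -0.61 and -0.098 from left to right.

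In *TIR-1; dpy-27::AID; cec-4*, 3 members fell on auxin and 1 rose, which is 4 of 43 where 6.4% of all genes were called. *gst-10* was 218, 234 and 412 FPKM without auxin and 100, 78.0 and 91.0 FPKM on auxin, a log2 fold change of -1.63 ± 0.35 (SE, adjusted p = 0.00766). *gst-4* was 52.3, 57.4 and 51.8 FPKM without auxin and 16.0, 30.4 and 25.9 FPKM on auxin, a log2 fold change of -1.21 ± 0.30 (SE, adjusted p = 0.0179). These 2 genes are the lipid aldehyde conjugating enzyme and the SKN-1 reporter gene named above, and neither overlapped between conditions.

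*gst-11*, an X-linked gene, was 8.0, 7.61 and 13.8 FPKM without auxin and 28.7, 29.3 and 33.5 FPKM on auxin. The auxin libraries were all higher, and the log2 fold change was 1.68 ± 0.37 (SE, adjusted p = 0.00775). The untreated level was itself low, as 7.61 FPKM was the lowest *gst-11* value of all 33 libraries (median 17.6 FPKM). Against WT the untreated libraries had a log2 fold change of -1.13, which did not pass in limma (adjusted p = 0.0977). How much of the rise lies in that low starting level was not tested. *gst-21* was 4.21, 5.12 and 5.58 FPKM without auxin, while on auxin it was 0.136 FPKM in replicate 1 and listed at 0 in replicates 2 and 3. It passed the test (adjusted p = 0.00282), but the size of its fitted change depends on the pseudocount and is not given as a fold. Before auxin, *gst-21* was between 1.64 and 5.40 FPKM in *cec-4* and between 2.51 and 5.25 FPKM in *TIR-1; dpy-27::AID*, and on auxin it was at least 1.95 FPKM in all libraries of the 3 other strains.

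The 4 calls were 4 of 43 members, where 6.4% of all genes were called in this comparison. Below 0 were 24 of 43 members (all genes, 52.5%), and the median log2 fold change was -0.098 (all genes, -0.045). Libraries did not overlap for 10 members lower on auxin (15.2% of all genes) and 5 higher (15.4% of all genes). *gst-26* had a log2 fold change of -0.87 (adjusted p = 0.0633) and *gst-1* of -0.62 (adjusted p = 0.0834). *gst-7* had -0.22, with 139, 164 and 176 FPKM without auxin and 101, 140 and 178 FPKM on auxin, which overlapped.

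X-linked genes as a whole had a median log2 fold change of 0.67 in this comparison and autosomal genes of -0.13. Of the 3 X-linked members only *gst-11* was called, while *gst-36* had -0.068 (95% interval -0.62 to 0.48) and *gst-42* -0.24 (interval -0.67 to 0.19). The medians in *TIR-1; dpy-27::AID* were 0.34 for X-linked and -0.098 for autosomal genes, and *gst-11* had 0.43, *gst-36* -0.079 and *gst-42* 0.17, none of them called.

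**Figure D4:**
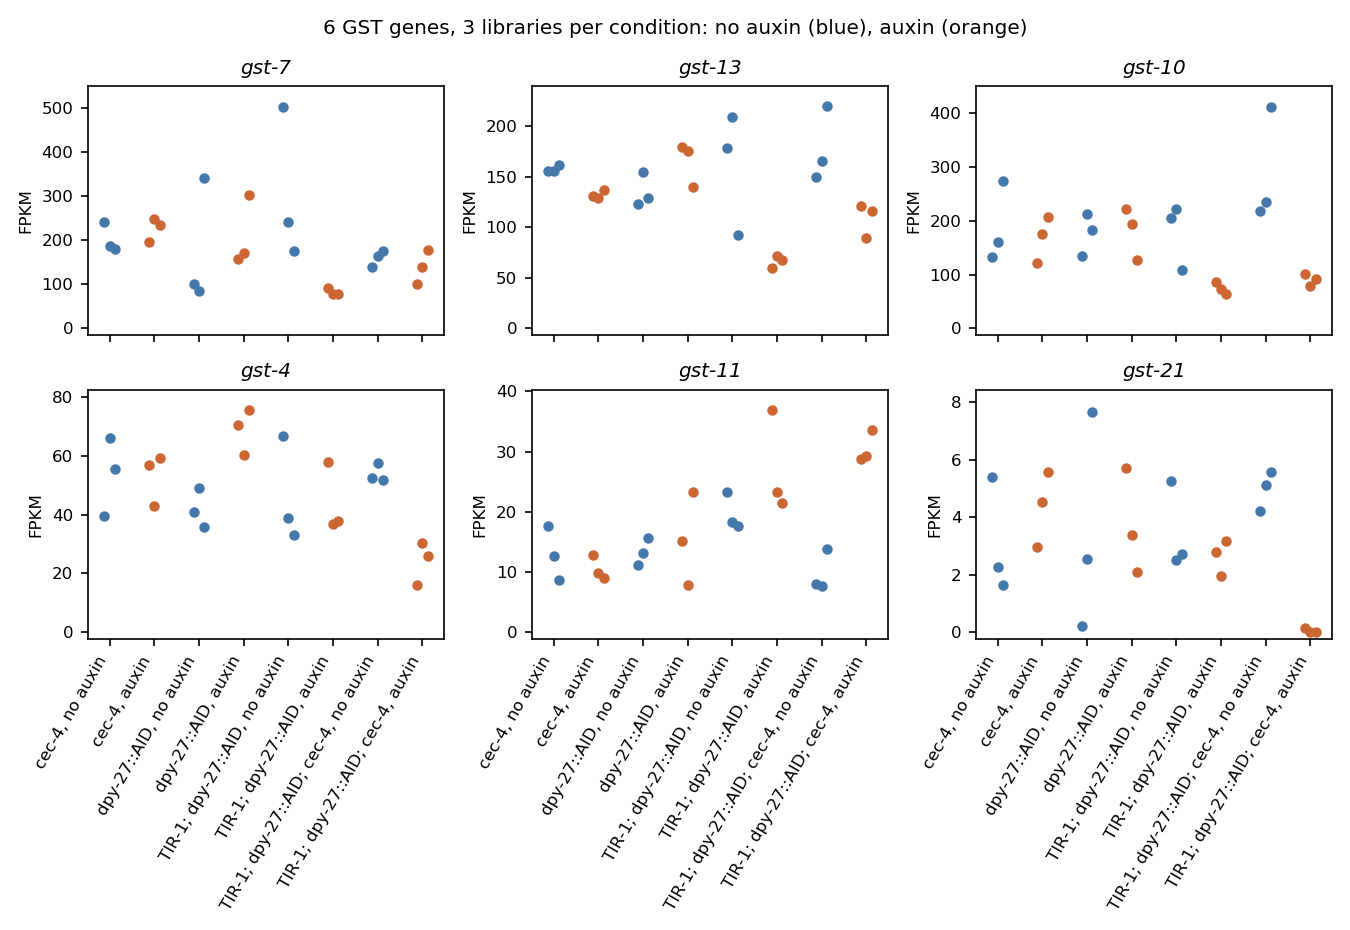
FPKM of *gst-7*, *gst-13*, *gst-10*, *gst-4*, *gst-11* and *gst-21* in each of 3 libraries for the 4 strains grown without auxin (blue) and on auxin (orange), on linear axes from 0. On auxin *gst-10* falls to 78.0 to 100 FPKM and *gst-21* to at most 0.136 FPKM in *TIR-1; dpy-27::AID; cec-4* on auxin, and *gst-7* to 77.9 to 92.3 FPKM in *TIR-1; dpy-27::AID* on auxin. The *gst-7* responses of the strains did not pass the test of their difference.

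Leaving out single libraries ended the *gst-4* call in 4 of 6 cases (highest adjusted p 0.0984, without auxin replicate 1) and the *gst-10* call without untreated replicate 3 (adjusted p = 0.0580). Leaving out the 3 libraries of this strain that held *cec-4* mRNA leaves 1 untreated and 2 auxin libraries, so only effect sizes are given. The log2 fold changes were then -2.11 for *gst-10*, -1.34 for *gst-4* and 1.17 for *gst-11*. The molt cycle sums differed in the opposite direction from the first strain with *TIR-1*, from 523, 511 and 377 FPKM without auxin to 94.2, 176 and 168 FPKM on auxin, with *nas-37*, a protease used in molting, called lower. Of the intestinal genes, *elt-2*, the gut GATA factor, was called higher and *ges-1*, the gut esterase, lower, with sums of 6258 to 8448 FPKM without and 5718 to 6660 FPKM with auxin. Hypodermal genes, again mostly *rol-6* and *dpy-7*, summed to 1125 to 1347 FPKM without and 284 to 606 FPKM with auxin. Of these genes *dpy-7*, a cuticle collagen, was called lower, and the log2 fold changes of the 5 ran from -2.11 to 0.87. Germline genes summed to 157 to 212 FPKM without and 76.6 to 120 FPKM with auxin, with 0 of 4 tested genes called. The part of these genes' cells or stage in the GST values was not tested.

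The auxin responses of strains were then compared directly. The response of *gst-21* in *TIR-1; dpy-27::AID; cec-4* lay below its response in *cec-4* (adjusted p = 0.0497), and it was the only 1 of 43 members called where 0.691% of all genes were. The call was lost in 18 of 21 alternatives, among them both other pseudocounts (adjusted p = 0.0701 and 0.0580), equal FPKM sums, the replicate block and 11 of 12 single libraries left out. It was 5.40, 2.25 and 1.64 FPKM without and 2.97, 4.54 and 5.57 FPKM with auxin in *cec-4*. For *gst-11* the difference between the same responses was 1.94 ± 0.52 on the log2 scale (SE, adjusted p = 0.0742), for *gst-10* -1.49 ± 0.50 (adjusted p = 0.155) and for *gst-4* -1.2 ± 0.43 (adjusted p = 0.176). No member's response differed between *TIR-1; dpy-27::AID* and *dpy-27::AID* in limma (0 of 43, 6 at an unadjusted p under 0.05, beside 0.00751% of all genes called). The responses of *gst-7* differed by -2.23 ± 0.54 (SE, adjusted p = 0.219), and its untreated *dpy-27::AID* values were 101, 85.8 and 342 FPKM. Between the 2 strains with *TIR-1*, 0 of 43 members differed (8 at an unadjusted p under 0.05, 1.44% of all genes called), with 1.52 ± 0.54 for *gst-7* (adjusted p = 0.160) and 1.52 ± 0.47 for *gst-6* (adjusted p = 0.0983). A gene called in one of these strains and not in the other is therefore not shown to respond differently. Across the 43 members the fitted responses of these 2 strains had a Pearson r of 0.13, given as a description.

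When both were grown on auxin, *TIR-1; dpy-27::AID* had less *gst-13* than *dpy-27::AID*. The values were 59.9, 71.5 and 67.2 FPKM against 179, 175 and 139 FPKM, which did not overlap, and the log2 fold change was -1.31 ± 0.28 (SE, adjusted p = 0.0168). This was 1 of 43 members, where 1.31% of all genes were called. Members below 0 numbered 24 of 43, and the median log2 fold change of members was -0.20 (all genes, -0.014). *gst-10* was also lower in all 3 libraries (86.7, 72.7 and 64.3 FPKM against 223, 195 and 127 FPKM) but did not pass (adjusted p = 0.0787). Absence of overlap is a description here too, as the share of all genes without overlap is not given. The *gst-13* call was lost without *dpy-27::AID* replicate 1 or 2 or *TIR-1; dpy-27::AID* replicate 1 (highest adjusted p 0.0828), at log2 fold changes between -1.42 and -1.24.

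Among the other classes, the 9 tested omega, zeta, kappa and pi members followed no common course on auxin. With DPY-27 depleted in *TIR-1; dpy-27::AID*, 7 of 9 were below 0 with 0 called, and in *TIR-1; dpy-27::AID; cec-4* 6 of 9 were below 0 with 1 called, *gst-10* of the pi class. The other pi gene, *gst-1*, had log2 fold changes of -0.55 (adjusted p = 0.280) and -0.62 (adjusted p = 0.0834) in these strains. The omega gene *gsto-1*, whose product protects worms from oxidative stress, had -0.31 and -0.098 and one of the widest spreads among the abundant genes, from 39.3 to 386 FPKM within *cec-4* alone. *gsto-3* had -0.17 and -0.20, and *gsto-2* was listed at 0 in 12 libraries. The zeta genes *gst-42* (0.17 and -0.24) and *gst-43* (0.15 and 0.34) stayed within 95% intervals of -0.67 to 0.88. The kappa class gene *gstk-1* had -1.12 (adjusted p = 0.207) and -0.67 (adjusted p = 0.334), with 36.4, 47.5 and 36.5 FPKM without auxin against 17.8, 15.6 and 21.7 FPKM on auxin in *TIR-1; dpy-27::AID*. *gstk-2* had -1.43 and 0.33, neither called.

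Untreated strains were compared with WT, and the 6 comparisons share the WT libraries. In *dpy-21; cec-4*, *gst-1*, *gst-10* and *gst-13* were called lower, and *gsto-3* and *gst-21* higher, 5 of 43 where 4.3% of all genes were called. *gst-1* was 307, 315 and 226 FPKM in WT and 146, 105 and 124 FPKM in *dpy-21; cec-4*, a log2 fold change of -1.17 ± 0.21 (SE, adjusted p = 0.00421). *gst-10* was 354, 437 and 141 FPKM in WT and 84.6, 95.8 and 89.3 FPKM in *dpy-21; cec-4* (-1.64 ± 0.35, adjusted p = 0.0117). Neither gene overlapped between the strains. The share of all genes without overlap is not given for comparisons with WT, so the absence of overlap is a description only. *gst-13* was 227, 216 and 105 FPKM in WT and 95.8, 111 and 62.0 FPKM in *dpy-21; cec-4* (-0.99 ± 0.28, adjusted p = 0.0444), which overlapped. *gsto-3* was 8.43, 12 and 19.2 FPKM in WT and 27.3, 33.4 and 35.9 FPKM in *dpy-21; cec-4* (1.35 ± 0.38, adjusted p = 0.0420), with no overlap.

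In *dpy-21*, 2 of 43 were called (3.66% of all genes). *gsto-3* was higher, at 38.5, 42.9 and 19.2 FPKM (log2 fold change 1.34 ± 0.38, adjusted p = 0.0469). *gst-20* was lower, at 58.2, 35.1 and 25.7 FPKM against 353, 233 and 30.9 FPKM in WT (adjusted p = 0.0464). WT replicate 3 lay within the *dpy-21* range of *gst-20*, so the groups overlapped.

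*gst-21* was listed at 0 in WT replicates 1 and 2 and was 1.93 FPKM in replicate 3. It was called higher in *dpy-21; cec-4* (1.28, 4.25 and 5.39 FPKM, adjusted p = 0.0434) and in *TIR-1; dpy-27::AID; cec-4* (4.21, 5.12 and 5.58 FPKM, adjusted p = 0.0289), where it was the only 1 of 43 called (1.73% of all genes). No fold is given against a group with listed zeros.

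No member was called in limma in *cec-4* (6 at an unadjusted p under 0.05, 0.195% of all genes called), *dpy-27::AID* (8, 0.586%) or *TIR-1; dpy-27::AID* (3, 0.293%). The median log2 fold change of members minus that of all tested genes was -0.58 in *cec-4*, -0.57 in *dpy-21*, -0.48 in *dpy-21; cec-4*, -0.49 in *dpy-27::AID*, -0.21 in *TIR-1; dpy-27::AID* and -0.35 in *TIR-1; dpy-27::AID; cec-4*. Scaling the libraries to equal FPKM sums moved the median of all genes by 0.31 to 0.37 in these comparisons. The relative medians of members were then -0.59, -0.55, -0.47, -0.53, -0.27 and -0.34 in the same order, and the members called in *dpy-21* were 2 higher and 1 lower in place of 1 and 1, while all genes called there were 722 higher and 52 lower in place of 317 and 170. Leaving out WT replicates 1 and 2 moved these medians by more than the scaling did in all 6 strains. Without WT replicate 1 the relative median was -0.37 in *cec-4*, -0.36 in *dpy-21* and 0.045 in *TIR-1; dpy-27::AID*. Without WT replicates 1 and 2 it was -0.20 in *cec-4*, -0.18 in *dpy-21*, -0.12 in *dpy-21; cec-4*, -0.63 in *dpy-27::AID*, 0.12 in *TIR-1; dpy-27::AID* and -0.22 in *TIR-1; dpy-27::AID; cec-4*.

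Fold changes against WT depended on WT replicates 1 and 2. Leaving out both leaves 1 WT library, which limma assumes to vary like the others, so only effect sizes are given for that fit. The log2 fold change of *gst-20* in *dpy-21* then turned to 0.28. For *gst-1* in *dpy-21; cec-4* it was -0.86, and WT replicate 3 still lay above every *dpy-21; cec-4* library. With any single library left out, *gst-1* passed in *dpy-21; cec-4* (highest adjusted p 0.0299 in limma). Without WT replicate 3 the calls rose to 9 in *cec-4*, 9 in *dpy-21*, 9 in *dpy-21; cec-4*, 5 in *dpy-27::AID*, 5 in *TIR-1; dpy-27::AID* and 4 in *TIR-1; dpy-27::AID; cec-4*. Calls over all genes rose as well in these fits, from between 26 and 572 genes to between 946 and 1735 of 13309. Molt cycle genes summed to 113, 98.7 and 248 FPKM in WT, to 287 to 418 FPKM in *dpy-21* and to 210 to 316 FPKM in *dpy-21; cec-4*, and their part in these differences was not tested.

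**Figure D5:**
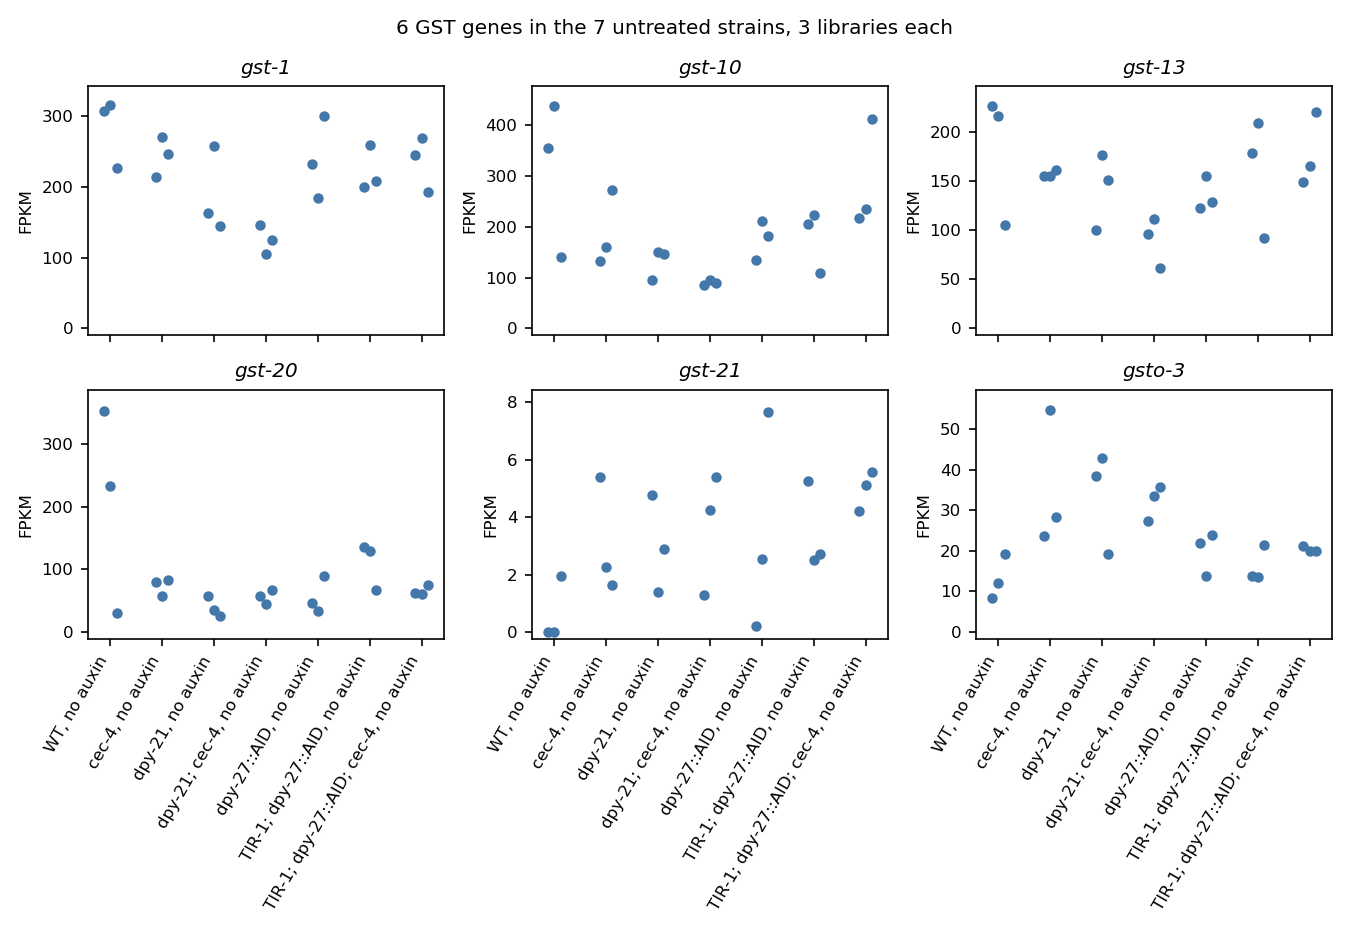
FPKM of *gst-1*, *gst-10*, *gst-13*, *gst-20*, *gst-21* and *gsto-3* in each of 3 libraries of the 7 untreated strains, on linear axes from 0. The panel of *gst-20* shows WT replicate 3 at 30.9 FPKM and WT replicates 1 and 2 at 353 and 233 FPKM.

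The rest of the glutathione system was counted over 49 tested genes of pathway lists (synthesis, SKN-1 signalling, peroxidases, glutaredoxins, glyoxalases, ABCC exporters, tyrosine breakdown, metal thiols and GST-fold proteins). None was called on auxin in *cec-4*, *dpy-27::AID* or *TIR-1; dpy-27::AID*. In *TIR-1; dpy-27::AID; cec-4*, 3 of 49 were called lower and 0 higher, where 3.33% of all genes were called lower. *gcs-1*, the limiting enzyme of glutathione synthesis, was 61.6, 63.0 and 58.1 FPKM without auxin and 40.7, 40.5 and 33 FPKM on auxin (log2 fold change -0.68 ± 0.14, adjusted p = 0.00377). *djr-1.1*, a DJ-1 related glyoxalase, was 101.2, 101.1 and 104 FPKM without auxin and 73.6, 57.5 and 47.8 FPKM on auxin (-0.80 ± 0.17, adjusted p = 0.00758). The glutaredoxin gene *glrx-21* was 84.4, 96.0 and 104 FPKM without auxin and 83.0, 22.8 and 41.3 FPKM on auxin (-1.14 ± 0.32, adjusted p = 0.0313). None of these 3 overlapped between conditions, where 15.2% of all genes were lower on auxin without overlap. For *glrx-21* the gap was only that between 84.4 and 83.0 FPKM. These 3 calls were not followed through the alternatives.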

How the data were processed

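Per the labels and the study's methods, the authors prepared strand-specific poly(A) libraries (NEBNext Ultra II Directional), trimmed reads with CutAdapt 2.3, checked them with FastQC 0.11.8, mapped and counted them against WBcel235 with Salmon 1.9.0 and used DESeq2 1.42.0. They deposited 1 table of FPKM for 21975 genes. How FPKM was computed and scaled is not given in the sources used here, and reads and counts were not analysed here.

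Values were taken as log2(FPKM + 0.1), so that changes of low genes are understated. The 13309 genes with a mean of at least 1 FPKM were fitted with limma 3.58.1 in R 4.3.3 (11 condition means, all 33 libraries, variance trend). Replicate number was not a term, and Benjamini-Hochberg adjustment ran over all tested genes of each of 14 comparisons, with a threshold of 0.05. The procedure was tested on simulated data, with independent normal log2 values for each gene and changes planted in a single comparison. That simulation had no listed zeros, no libraries that stood apart and no effects shared within a library. It therefore does not measure how reliable the calls in these libraries are. Errors given with log2 fold changes are SEs of that fit. Figures were drawn with Python 3.11.15 and matplotlib 3.10.9. Symbols, positions and overlaps came from the WBcel235 annotation. Depth was read from the lowest values above 0 of 3742 genes with 1 transcript and at least 1500 exonic bases.

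Named members were those called in any comparison, the 10 most abundant, the omega, zeta, kappa and pi classes, *gst-4* and the X-linked genes. *gst-17*, *gst-18*, *gst-8*, *gst-37*, *gst-38*, *gst-32* and the untested members were named in addition. The rule for members used symbols only, but the family, like the pathway and marker lists, was chosen with earlier results of these data known. Alternatives were other pseudocounts, filters and scalings, a replicate block, no variance trend, fits of the compared conditions alone and leaving out libraries.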

Additional observations from a re-analysis of the deposited data

Results flagged for a closer look

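The response of *gst-21* to auxin differed between *TIR-1; dpy-27::AID; cec-4* and *cec-4* by -5.85 on the log2(FPKM + 0.1) scale (adjusted p = 0.0497 in limma). It is listed because its change on auxin in the libraries labelled *TIR-1; dpy-27::AID; cec-4* differed, by a test of the difference itself, from that in the libraries labelled *cec-4*. The values were 4.21, 5.12 and 5.58 FPKM without auxin, against 0.136 FPKM in replicate 1 and a listed 0 in replicates 2 and 3 on auxin. In *cec-4* they were 5.40, 2.25 and 1.64 FPKM without auxin and 2.97, 4.54 and 5.57 FPKM on auxin. The size rests on the pseudocount, being -2.97 with a pseudocount of 1 and -8.29 with 0.01. The adjusted p was 0.0701 and 0.0580 under these, and between 0.0479 and 0.132 when single libraries were left out.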

How the results depend on the processing

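Counts of members called are given here, each against its count in the report. For auxin in *TIR-1; dpy-27::AID* (1), a mean of at least 5 FPKM gave 2 and equal FPKM sums 2, while a replicate block, no variance trend and a fit of only the compared conditions each gave 0. Leaving out 1 library gave 0 to 3. For auxin in *TIR-1; dpy-27::AID; cec-4* (4), single libraries left out gave 2 to 4. Leaving out the libraries that hold *cec-4* mRNA, an alternative chosen after seeing the data, leaves 1 untreated library, so it is not read as a count of members. That alternative has fewer samples.

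For *dpy-21* against WT (2), no filter, no trend and only the compared conditions gave 0, the block 1 and single libraries left out 0 to 9. For *dpy-21; cec-4* (5), no filter gave 2, only the compared conditions 0 and single libraries left out 1 to 9. The ranges for single libraries were 0 to 9 in *cec-4* (0), 0 to 5 in *dpy-27::AID* (0), 0 to 5 in *TIR-1; dpy-27::AID* (0) and 0 to 4 in *TIR-1; dpy-27::AID; cec-4* (1). Over the alternatives, calls over all genes in these strains reached 1337, 1450, 946 and 1408 of 13309 in the same order. In *TIR-1; dpy-27::AID; cec-4*, a pseudocount of 1, a mean of at least 5 FPKM and only the compared conditions each gave 0 members. Leaving out WT replicates 1 and 2, also chosen after seeing the data, leaves 1 WT library, so it is not read as a count of members. The log2 fold change of *gst-20* in *dpy-21* reversed to 0.28 there.

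For the response of *TIR-1; dpy-27::AID; cec-4* minus *cec-4* (1), pseudocounts of 1 and 0.01, no filter, a mean of at least 5 FPKM (which removes *gst-21*), equal sums, the block, no trend and leaving out the libraries with *cec-4* mRNA each gave 0, and single libraries 0 to 2. For *TIR-1; dpy-27::AID; cec-4* minus *TIR-1; dpy-27::AID* (0), only the compared conditions gave 2. Single libraries left out gave 0 to 2 for *TIR-1; dpy-27::AID* against *dpy-27::AID* on auxin (1) and 0 to 1 for the difference of their responses (0). Calls over all genes moved with the settings too. Over the alternatives they numbered 5 to 138 for auxin in *TIR-1; dpy-27::AID* (78 with equal sums, 19 with no trend), 1 to 917 for auxin in *TIR-1; dpy-27::AID; cec-4*, 50 to 1640 for *dpy-21* against WT, 66 to 1735 for *dpy-21; cec-4* and 0 to 224 for the response of *TIR-1; dpy-27::AID; cec-4* minus *cec-4*. Causes of these changes were not tested.

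Same-numbered replicates correlated between -0.10 and 0.17 and in no comparison were all 3 over 0.1, so the numbers were not taken as pairing. With the replicate block the adjusted p of *gst-7* was 0.0502. Median-of-ratios scaling changed no count. Low genes are limited by depth, as 1 fragment on 1 kb was worth up to 0.120 FPKM.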
